A study of Homo sapiens with 9 samples.

Results

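The genes described here are 10 that shape the sugar coat of the cell surface: the hyaluronan synthases HAS2 and HAS3, the hyaluronan-degrading proteins CEMIP and CEMIP2, the hyaluronan receptor CD44, the syndecans SDC1, SDC2, SDC3 and SDC4, and the glypican GPC1. They were chosen by name, by matching the Ensembl gene IDs of the files to gene symbols, and each of the 10 symbols matched 1 ID among the 41857 gene IDs. A gene was tested where it reached 10 in at least 3 libraries, which held for 15108 genes and for 9 of these 10; HAS2 fell short.

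The libraries came from MCF10A, an immortalized but non-tumorigenic human mammary epithelial cell line. The cells carried human deltaNp63alpha, human deltaNp63beta or an empty vector, and the labels give the genotype of the line as WT. DeltaNp63alpha and deltaNp63beta are splice forms of the transcription factor p63 that lack the N-terminal transactivation domain and differ at the C terminus. Every culture, vector included, received 500 ng/mL doxycycline, the inducing agent, for 24 h, so no uninduced cells enter these comparisons. Each of the 3 groups had 3 libraries of polyA RNA, which the series describes as biological triplicates. Whether the lines were clones or pools is not given in the labels. The values are estimated read numbers per gene on a common scale set by the authors, called normalized counts below. They sum to between 22.48 and 23.21 M per library, and the smallest steps between values correspond to 20.3 to 24.4 M estimated fragments. TP63 itself, the gene that was introduced, stood between 4426 and 6983 in the deltaNp63alpha libraries, between 4183 and 6719 in the deltaNp63beta libraries and between 259 and 332 in the vector libraries. KRT5, a keratin of basal epithelial cells, was at least 89777 in deltaNp63alpha, 143399 in deltaNp63beta and 53800.5 in vector libraries, and all 6 mammary epithelial markers passed the filter. Of the markers of other cell types, PTPRC, which defines leukocytes, was at most 4.22 and CDH5, which defines endothelium, at most 1.84 in any library. Other genes of those lists were well above 0: CD68 and ITGB2 of the leukocyte list lay between 586 and 1161 and between 138 and 570, KDR of the endothelial list between 75.7 and 149, and FBLN1 of the fibroblast list between 7160.1 and 12976.

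Hyaluronan is a long unbranched polysaccharide that synthases in the plasma membrane extrude directly into the extracellular space, where CD44 binds it and CEMIP and hyaluronidases shorten it. Syndecans and glypicans are core proteins that carry heparan sulfate chains at the cell surface, the syndecans as transmembrane proteins and the glypicans on a lipid anchor, and these chains bind growth factors and matrix proteins. In stratified and mammary epithelia, syndecan-1 and CD44 are abundant on the cell surface, and p63 is expressed in the basal layer.

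Among the 9 tested genes, 5 were higher and 1 was lower in deltaNp63alpha cells than in vector cells at an adjusted p under 0.05 (limma with Benjamini-Hochberg adjustment over all 15108 genes, as for every adjusted p below). In that comparison 14.5% of all genes tested passed, 8.13% higher and 6.37% lower. In deltaNp63beta cells against vector cells 6 were higher and 1 was lower, where 41.3% of all genes passed, 21.8% higher and 19.5% lower. Between deltaNp63beta and deltaNp63alpha cells 1 was higher and 1 was lower, where 32.9% of all genes passed, 17.4% higher and 15.5% lower, so the share of these genes called in that comparison is near the background. The median log2 change of the 9 genes was 0.28 with deltaNp63alpha and 0.36 with deltaNp63beta, each against vector, beside medians of -0.0059 and -0.0048 over all genes. Between deltaNp63beta and deltaNp63alpha the median was 0.03, beside -0.0003 over all genes. Both comparisons with vector use the same 3 vector libraries. HAS3, CEMIP, CD44 and SDC1 were higher with both isoforms, and SDC3 was lower with both. The calls for HAS3, CD44 and SDC1 against vector held without any 1 library, whereas those for CEMIP and SDC3 did not.

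**Figure D1:**
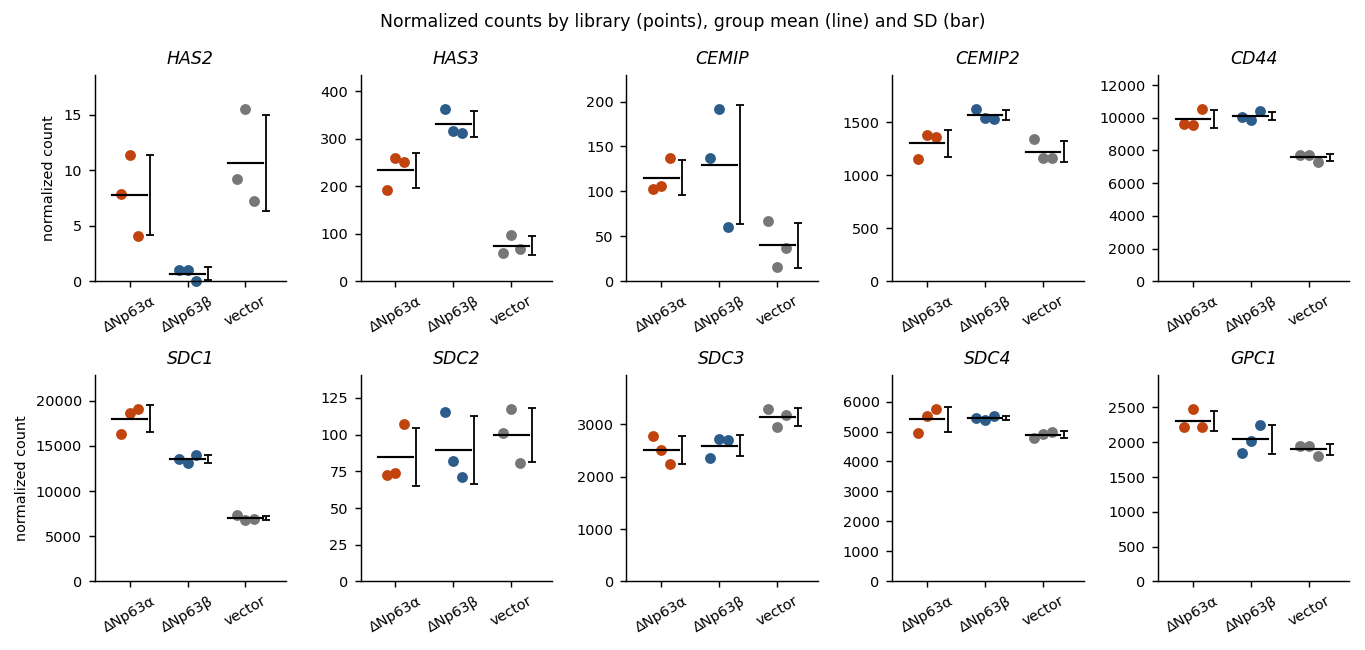
Normalized counts (vertical axis, linear, starting at 0) of the 10 genes in deltaNp63alpha, deltaNp63beta and vector cells; each point is 1 of 3 libraries, each horizontal line a group mean and each vertical bar its SD. SDC1 is highest in deltaNp63alpha and lowest in vector cells without overlap, HAS3 is highest in deltaNp63beta cells, and HAS2 is near 0 there.

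Promoter windows from RefSeq, on build GRCh38.p14, could be matched for 8 of the 10 genes, as 9 windows of 300 bases running from 250 before to 50 after the annotated start. Those of the 4 genes that were called higher with both isoforms are shown, for that shared call alone. They are, on the strand of each gene, HAS3 at chr16:69107290-69107589 (+), CEMIP at chr15:80779120-80779419 (+), CD44 at chr11:35138921-35139220 (+) and SDC1 at chr2:20225426-20225725 (-). A second window of SDC1, at chr2:20225081-20225380, was searched but is not printed. Capitals mark matches to the GC box GGGCGG on either strand, read as CCGCCC on the other strand, and in CEMIP also the TATA box TATAAA.
HAS3: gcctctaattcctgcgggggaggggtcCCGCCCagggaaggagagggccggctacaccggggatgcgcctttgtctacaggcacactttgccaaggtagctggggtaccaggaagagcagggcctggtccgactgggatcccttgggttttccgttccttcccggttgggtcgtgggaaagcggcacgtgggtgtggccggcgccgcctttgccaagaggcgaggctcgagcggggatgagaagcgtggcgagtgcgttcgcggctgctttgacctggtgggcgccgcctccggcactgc
CEMIP: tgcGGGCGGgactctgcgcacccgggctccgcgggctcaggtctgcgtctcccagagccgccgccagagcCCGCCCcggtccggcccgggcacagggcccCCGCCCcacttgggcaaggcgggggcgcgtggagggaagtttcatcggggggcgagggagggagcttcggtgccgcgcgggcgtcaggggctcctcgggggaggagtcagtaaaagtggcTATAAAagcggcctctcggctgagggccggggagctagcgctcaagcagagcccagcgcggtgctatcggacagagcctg
CD44: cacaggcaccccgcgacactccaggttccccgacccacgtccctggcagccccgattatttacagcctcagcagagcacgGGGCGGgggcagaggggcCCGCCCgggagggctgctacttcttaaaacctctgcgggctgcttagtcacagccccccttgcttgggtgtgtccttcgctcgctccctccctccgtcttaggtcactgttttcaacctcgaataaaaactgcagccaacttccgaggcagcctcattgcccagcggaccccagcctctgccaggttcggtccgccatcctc
SDC1: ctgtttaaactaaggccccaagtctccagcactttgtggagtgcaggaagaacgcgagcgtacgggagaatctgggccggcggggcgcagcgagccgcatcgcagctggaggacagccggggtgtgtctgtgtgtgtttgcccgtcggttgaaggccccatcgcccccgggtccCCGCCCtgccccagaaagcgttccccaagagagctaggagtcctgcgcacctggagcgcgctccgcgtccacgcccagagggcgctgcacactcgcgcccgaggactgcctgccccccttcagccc
CEMIP alone of the 9 windows held a TATA box, whose first base lies 30 bases before the start; 11.5% of all 35116 RefSeq promoter windows hold 1. A GC box was present in 9 of 9 windows, against 45.0% of all windows. The AP-1 site TGANTCA was found in 0 of 9 windows, against 7.71% of all, and the p53 family half-site in 0 of 9, against 6.63% of all. All motifs were searched on both strands, and no matches overlapped in these windows. A match here is a description of letters and not of binding. The windows of HAS3 and CD44 lie at RefSeq starts and wholly downstream of the first base of the gene in the GENCODE annotation.

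HAS3 was higher with both isoforms. It encodes a hyaluronan synthase of the plasma membrane (ENSG00000103044, chromosome 16, 69105564 to 69118719, plus strand, GRCh38) and overlaps CHTF8 on the other strand. HAS3 stood at 192, 259 and 250.4 normalized counts in the deltaNp63alpha libraries, at 363, 316 and 313 in the deltaNp63beta libraries and at 59.7, 97.5 and 68.3 in the vector libraries. All 6 p63 libraries lay above all 3 vector libraries, and every deltaNp63beta library lay above every deltaNp63alpha library. Against vector, the log2 change of HAS3 was 1.64 ± 0.19 (SE) with deltaNp63alpha (adjusted p = 0.000127) and 2.15 ± 0.19 with deltaNp63beta (adjusted p = 4.47e-06). Its means were 233.9 ± 36.6 with deltaNp63alpha, 331 ± 27.9 with deltaNp63beta and 75.2 ± 19.8 with vector (SD, n = 3 each), ratios to vector of 3.11 and 4.40. The difference between the isoforms, 0.51 on the log2 scale with a 95% interval from 0.095 to 0.92, did not pass (adjusted p = 0.0592). It passed without vector replicate 1 (adjusted p = 0.0434) or vector replicate 2 (0.0247) and when only the 2 isoform groups were fitted (0.023).

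HAS2 makes longer hyaluronan chains than HAS3 and is the synthase best known from mesenchymal cells and wound repair (ENSG00000170961, chromosome 8, 121612116 to 121641390, minus strand, with HAS2-AS1 on the other strand). HAS2 was at 7.91, 11.4 and 4.08 normalized counts in deltaNp63alpha libraries, at 0.982, 1.02 and 0 in deltaNp63beta libraries and at 9.22, 15.5 and 7.27 in vector libraries. The deltaNp63beta libraries lay below all others, while the deltaNp63alpha and vector libraries overlapped. The deltaNp63beta values are at or near what 1 fragment gives, so no fold is stated. With the filter lifted, which was an alternative setting, the deltaNp63beta cells differed from vector cells (adjusted p = 0.00227) and from deltaNp63alpha cells (adjusted p = 0.0102), and the deltaNp63alpha and vector cells did not (adjusted p = 0.744).

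The balance of the synthases can be read within each library as the log2 difference of HAS3 over HAS2, each with a pseudocount of 1. It was 4.44, 4.40 and 5.63 in the deltaNp63alpha libraries, 7.52, 7.29 and 8.30 in the deltaNp63beta libraries and 2.57, 2.58 and 3.07 in the vector libraries. The 3 groups did not overlap, and HAS3 was the higher of the pair in all 9 libraries. The means were 4.82 ± 0.70 with deltaNp63alpha, 7.70 ± 0.53 with deltaNp63beta and 2.74 ± 0.28 with vector (SD, n = 3 each). With HAS2 between 0 and 1.02 in deltaNp63beta libraries the pseudocount sets the size of that value, which was 9.38 with a pseudocount of 0.1, so it is read as an order and not as a fold. The transcripts of the pair are of similar length, 4220 bases for HAS3 and 4190 for HAS2, so length hardly enters this difference. The third synthase, HAS1, averaged 1.36 ± 1.31 with deltaNp63alpha, 5.75 ± 5.70 with deltaNp63beta and 0.964 ± 1.15 with vector, and was not tested.

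CEMIP (ENSG00000103888, chromosome 15, 80779343 to 80951776, plus strand), also called HYBID, is a secreted protein needed for hyaluronan depolymerization in skin fibroblasts. CEMIP stood at 102.5, 105.9 and 137.4 normalized counts in the deltaNp63alpha libraries, at 137, 192 and 59.9 in the deltaNp63beta libraries and at 66.5, 15.9 and 36.9 in the vector libraries. The deltaNp63alpha libraries lay above all vector libraries. The deltaNp63beta libraries were widely spread, with replicate 3 below the highest vector library. The log2 change of CEMIP against vector was 1.72 ± 0.49 (SE) with deltaNp63alpha (adjusted p = 0.0404) and 1.74 ± 0.49 with deltaNp63beta (adjusted p = 0.0153). The deltaNp63alpha call was lost without any 1 deltaNp63alpha library, without deltaNp63beta replicate 1, or without vector replicate 2 or 3 (adjusted p = 0.0504 to 0.125), with no filter (0.0836) and with no mean-variance trend (0.113). The deltaNp63beta call was lost without deltaNp63beta replicate 2 (0.0632) or vector replicate 2 (0.0501). The isoforms differed by 0.03 on the log2 scale, with an interval from -1.06 to 1.11 that is too wide to tell them apart. CEMIP overlaps 4 genes on the other strand, MESD among them, and whether the counting used strand is not given in the sources used here.

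CEMIP2 (ENSG00000135048, chromosome 9, 71683366 to 71816690, minus strand), a transmembrane relative of CEMIP also known as TMEM2, was reported as a hyaluronidase at the cell surface. CEMIP2 was at 1159, 1385 and 1365 normalized counts with deltaNp63alpha, at 1627, 1545 and 1535 with deltaNp63beta and at 1340.2, 1168 and 1166 with vector. The deltaNp63beta libraries were above all others, and the deltaNp63alpha and vector libraries overlapped. CEMIP2 rose by 0.36 ± 0.08 (SE, log2) in deltaNp63beta cells against vector cells (adjusted p = 0.00403), a call that held without any 1 library. In deltaNp63alpha cells its difference from vector was 0.09 ± 0.08 (adjusted p = 0.542). CEMIP2 was higher with deltaNp63beta than with deltaNp63alpha by 0.27 ± 0.08 (adjusted p = 0.0235), which did not pass without deltaNp63alpha replicate 1 or deltaNp63beta replicate 1 or 2 (adjusted p = 0.0505 to 0.0832) or with no mean-variance trend (0.0592).

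CD44 (ENSG00000026508, chromosome 11, 35138870 to 35232402, plus strand) is the main cell-surface receptor for hyaluronan. CD44 was at 9603, 9559 and 10537 normalized counts in the deltaNp63alpha libraries, at 10053.5, 9864 and 10395.5 in the deltaNp63beta libraries and at 7707, 7694 and 7317 in the vector libraries. All 6 p63 libraries were above all vector libraries, and the isoform groups overlapped. CD44 rose by 0.39 ± 0.05 (SE, log2) with deltaNp63alpha (adjusted p = 0.000167) and by 0.42 ± 0.05 with deltaNp63beta (adjusted p = 2.72e-05), ratios of means of 1.31 and 1.33. The isoforms differed by 0.03 in CD44, with a 95% interval from -0.07 to 0.13. The gene has 39 annotated transcripts, 26 of them coding, and gene-level values do not tell standard CD44 from its variant forms. CD44 overlaps AL133330.1 on the same strand and with CD44-AS1 on the other.

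SDC1 (ENSG00000115884, chromosome 2, 20200797 to 20225433, minus strand, with no overlapping gene) encodes syndecan-1, the main syndecan of epithelial cells. SDC1 stood at 16295, 18662 and 19049 normalized counts in the deltaNp63alpha libraries, at 13598, 13074 and 14031 in the deltaNp63beta libraries and at 7317, 6825 and 6898.5 in the vector libraries. The 3 groups did not overlap, and the order was deltaNp63alpha, then deltaNp63beta, then vector. SDC1 rose by 1.36 ± 0.06 (SE, log2) with deltaNp63alpha (adjusted p = 8.83e-08) and by 0.95 ± 0.06 with deltaNp63beta (adjusted p = 2.33e-07). It was lower with deltaNp63beta than with deltaNp63alpha by a log2 difference of -0.41 with a 95% interval from -0.53 to -0.28 (adjusted p = 0.000308). Mean levels were 18002 ± 1491 with deltaNp63alpha, 13568 ± 479 with deltaNp63beta and 7013 ± 265 with vector (SD, n = 3 each). In bulk RNA, fewer cells expressing a gene and less RNA per cell cannot be told apart. Syndecan protein and shed ectodomains were not measured.

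SDC4 (ENSG00000124145, chromosome 20, 45325288 to 45348424, minus strand) encodes syndecan-4, a component of focal adhesions. SDC4 was at 4945, 5528 and 5741 normalized counts with deltaNp63alpha, at 5451, 5397 and 5524 with deltaNp63beta and at 4773, 4923 and 4996 with vector. The deltaNp63beta libraries lay above the vector libraries, and the deltaNp63alpha libraries overlapped both. SDC4 was higher with deltaNp63beta by 0.16 ± 0.05 (SE, log2; adjusted p = 0.0339), a call lost without any 1 deltaNp63beta or vector library (adjusted p = 0.0545 to 0.105) and under equal totals (0.0855), quantile normalization (0.0914) or no mean-variance trend (0.0953). With deltaNp63alpha the difference was 0.14 ± 0.05 (adjusted p = 0.109), which passed without deltaNp63alpha replicate 1 (0.012).

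SDC3 (ENSG00000162512, chromosome 1, 30869467 to 30908761, minus strand) encodes syndecan-3, best known from nerve tissue and muscle precursors. SDC3 was at 2782, 2509.5 and 2250.5 normalized counts with deltaNp63alpha, at 2366, 2725 and 2695 with deltaNp63beta and at 3287, 2949 and 3169.6 with vector. All 6 p63 libraries were below all vector libraries. SDC3 fell by 0.32 ± 0.08 (SE, log2) with deltaNp63alpha (adjusted p = 0.0213) and by 0.27 ± 0.08 with deltaNp63beta (adjusted p = 0.0186). The deltaNp63alpha call was lost when replicate 2 or 3 of deltaNp63alpha was left out, or replicate 1 or 3 of vector (adjusted p = 0.0599 to 0.0803), and with no mean-variance trend (0.080). The deltaNp63beta call was lost when replicate 1 of deltaNp63beta or replicate 1 or 3 of vector was left out (adjusted p = 0.0534 to 0.0684) and with no mean-variance trend (0.060).

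SDC2 (ENSG00000169439, chromosome 8, 96493351 to 96611780, plus strand), which encodes the syndecan typical of fibroblasts, was the lowest of the 4 per kilobase of transcript. SDC2 was at 72.7, 73.8 and 107.4 normalized counts with deltaNp63alpha, at 115.7, 82.3 and 71.4 with deltaNp63beta and at 101.1, 117.3 and 80.4 with vector. The 3 groups overlapped. Its differences from vector were -0.24 ± 0.24 (SE, log2) with deltaNp63alpha (adjusted p = 0.577) and -0.16 ± 0.24 with deltaNp63beta (adjusted p = 0.621), neither past the threshold.

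To compare levels between the syndecans, normalized counts were divided by the length in kilobases of the longest coding transcript of each gene. On this scale SDC1 was at 5470 ± 453 with deltaNp63alpha, 4123 ± 146 with deltaNp63beta and 2131 ± 80.6 with vector. SDC4 was next, at 2068 ± 158 with deltaNp63alpha, 2089 ± 24.3 with deltaNp63beta and 1874 ± 43.6 with vector. SDC1 was the higher of the pair in each group, by less in vector cells than in the p63 lines. SDC3 was at 393 ± 41.6 with deltaNp63alpha, 406 ± 31.2 with deltaNp63beta and 490.5 ± 26.9 with vector, and SDC2 between 22.5 and 26.5 in the 3 group means. As a share of the summed syndecan level, SDC1 made up 68.7 ± 0.77% with deltaNp63alpha, 62.1 ± 0.71% with deltaNp63beta and 47.1 ± 1.15% with vector (SD, n = 3 each). SDC4 made up 26.0 ± 0.24% with deltaNp63alpha, 31.5 ± 0.42% with deltaNp63beta and 41.5 ± 1.45% with vector. The shares of each of these genes did not overlap between groups. A share falls when another member rises, and SDC4 counts themselves were not lower in the p63 lines. For SDC3 the transcript matters: with a coding transcript of 1580 bases in place of 6392, its level was 1591 with deltaNp63alpha, 1643 with deltaNp63beta and 1984 with vector. At that length SDC3 stood above SDC4 in vector cells. The order and the shares given here therefore hold only for the longest coding transcripts.

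**Figure D2:**
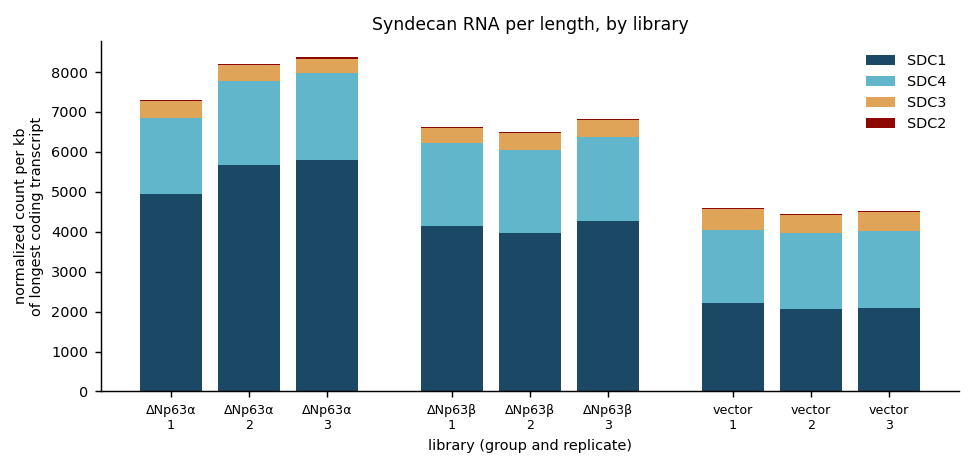
Normalized counts per kilobase of the longest coding transcript (vertical axis, starting at 0) of the 4 syndecans, stacked in 1 bar for each of the 9 libraries. SDC1 averages 68.7% of the stack in deltaNp63alpha, 62.1% in deltaNp63beta and 47.1% in vector libraries, while SDC2 is barely visible.

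GPC1 (ENSG00000063660, chromosome 2, 240435671 to 240468078, plus strand) encodes glypican-1, a heparan sulfate carrier held on the membrane by a lipid anchor. GPC1 was at 2213, 2472 and 2225 normalized counts with deltaNp63alpha, at 1841, 2024 and 2253 with deltaNp63beta and at 1948, 1943 and 1804.5 with vector. The deltaNp63alpha libraries lay above all vector libraries, and the deltaNp63beta libraries overlapped both other groups. GPC1 rose by 0.28 ± 0.08 (SE, log2) with deltaNp63alpha (adjusted p = 0.0305), a call that did not survive leaving out any 1 vector library, or the second or the third deltaNp63alpha library (adjusted p = 0.0558 to 0.116) and with no mean-variance trend (0.0922). With deltaNp63beta the difference from vector was 0.10 ± 0.08 (adjusted p = 0.325). The difference of deltaNp63beta from deltaNp63alpha was -0.18 with an interval from -0.345 to -0.013 and did not pass (adjusted p = 0.094), except without deltaNp63beta replicate 3 (0.0203).

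**Figure D3:**
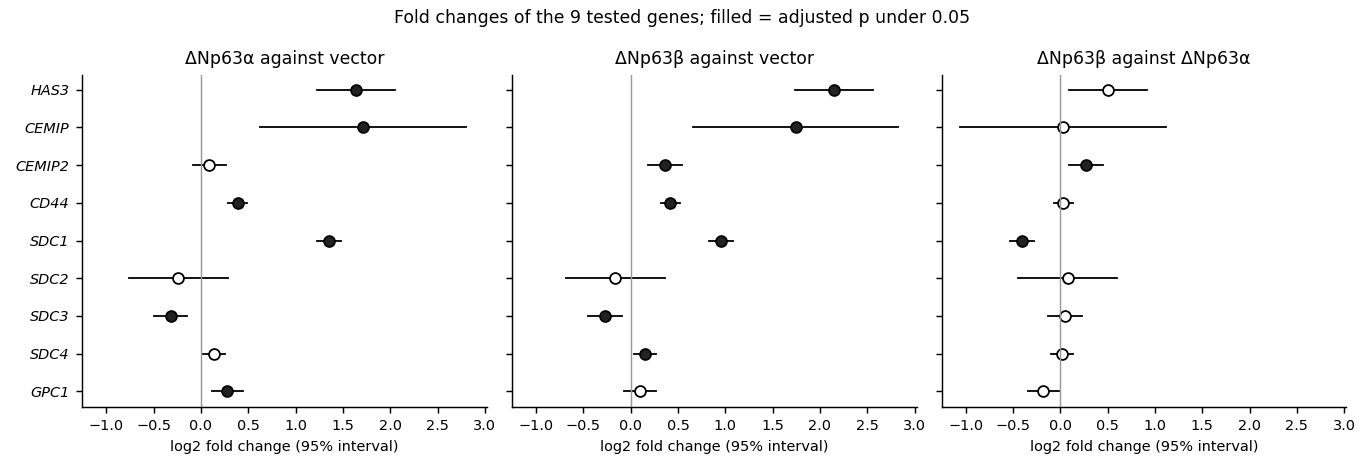
Log2 change (horizontal axis) of the 9 tested genes with its 95% confidence interval, for deltaNp63alpha against vector, deltaNp63beta against vector and deltaNp63beta against deltaNp63alpha; filled points passed an adjusted p under 0.05. HAS3, CEMIP and SDC1 lie farthest to the right against vector, the CEMIP intervals are the widest, and SDC1 is the gene called lower with deltaNp63beta than with deltaNp63alpha.

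Other genes of these pathways were taken from lists named for their function, and their counts are read against the 14.5% (deltaNp63alpha against vector), 41.3% (deltaNp63beta against vector) and 32.9% (deltaNp63beta against deltaNp63alpha) of all genes that passed. The enzymes that make the sugar nucleotides of hyaluronan were lower with deltaNp63beta: 6 of 7 tested genes fell against vector (median log2 change -0.54) and 6 of 7 fell against deltaNp63alpha (median -0.60), and 2 of 7 fell with deltaNp63alpha against vector (median -0.10). GFPT2, an isoform of the enzyme that commits fructose 6-phosphate to the hexosamine pathway, averaged 460 ± 58.0 with deltaNp63alpha, 235 ± 51.2 with deltaNp63beta and 1312 ± 16.6 with vector. GFPT2 fell by 1.52 with deltaNp63alpha (adjusted p = 2.53e-05) and by 2.50 with deltaNp63beta (adjusted p = 1.19e-07). GFPT1, the other isoform of that enzyme, averaged 3720 ± 87.4 with deltaNp63alpha, 2389 ± 245 with deltaNp63beta and 3469 ± 200 with vector, and fell by 0.54 with deltaNp63beta (adjusted p = 8.86e-05). PGM3, which converts N-acetylglucosamine 6-phosphate, fell by 0.68 with deltaNp63beta against vector (adjusted p = 2.02e-05). UGP2, which makes UDP-glucose, fell by 0.31 with deltaNp63beta (adjusted p = 6.37e-05) and by 0.15 with deltaNp63alpha (adjusted p = 0.0189), the second call being lost when replicate 2 of deltaNp63alpha or any 1 of the vector libraries was left out (0.0563 to 0.0747) and with no mean-variance trend (0.0701). These precursors also feed other glycans, and no sugar nucleotide was measured.

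Of the 6 tested hyaluronidases and lysosomal enzymes of hyaluronan breakdown, 2 rose with deltaNp63beta against vector and the same number against deltaNp63alpha (median 0.20 in each). These counts are no larger a share than among all genes against vector (41.3%) and near that between the isoforms (32.9%). HYAL2, a lipid-anchored hyaluronidase, was higher with deltaNp63beta than with vector by 0.20 (adjusted p = 0.0312), a call lost when replicate 2 or 3 of either deltaNp63beta or vector was left out (0.052 to 0.104), under equal totals (0.0678), under quantile normalization (0.0911) and with no filter (0.0704). With deltaNp63alpha against vector 0 of 6 passed in limma, 0 of 6 also at an unadjusted p under 0.05 (median 0.03).

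Among other hyaluronan-binding proteins, 10 of 21 were tested, with 2 higher and 3 lower with deltaNp63beta and 1 lower with deltaNp63alpha, each against vector (medians -0.76 and -0.23). Both counts are near the background of 41.3% with deltaNp63beta and 14.5% with deltaNp63alpha. The median of -0.76 rests on genes averaging only 5.59 to 12.1 with deltaNp63beta, whose log2 changes had SE of 0.65 to 1.3. Of the 3 lower calls, 1 was of such a gene. Under quantile normalization the deltaNp63beta counts were 2 higher and 2 lower, with a median of -0.535. The median is therefore not read as a general fall. Versican, VCAN, a large hyaluronan-binding matrix proteoglycan, averaged 3454 ± 44.7 with deltaNp63alpha, 3438.5 ± 521 with deltaNp63beta and 4609 ± 220 with vector. VCAN fell by 0.42 with deltaNp63alpha (adjusted p = 0.00744) and by 0.43 with deltaNp63beta (adjusted p = 0.00192). Brevican, BCAN, best known from brain, rose by 0.80 with deltaNp63beta against vector (adjusted p = 0.0026), at 167 ± 20.4 with deltaNp63beta and 95.04 ± 8.05 with vector. HMMR, an intracellular and cell-surface hyaluronan-binding protein also active at the mitotic spindle, was 0.21 higher with deltaNp63beta than with vector (adjusted p = 0.0056).

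Of the 8 tested other glypicans and cell-surface proteoglycans, 3 rose and 1 fell with deltaNp63beta (median 0.33), and 1 rose and 1 fell with deltaNp63alpha (median -0.10), each against vector. With 41.3% of all genes called with deltaNp63beta and 14.5% with deltaNp63alpha, these counts are near the background. The glypican GPC4 averaged 156 ± 26.3 with deltaNp63alpha, 328 ± 12.1 with deltaNp63beta and 166 ± 26.2 with vector. GPC4 rose by 0.99 ± 0.15 (SE) with deltaNp63beta against vector (adjusted p = 0.00038) and by 1.09 against deltaNp63alpha (adjusted p = 0.000299), while its difference between deltaNp63alpha and vector was -0.10 (adjusted p = 0.74). The glypican GPC6 rose by 0.40 with deltaNp63beta against vector (adjusted p = 0.0116). PTPRZ1, a receptor phosphatase that carries chondroitin sulfate, rose by 0.93 with deltaNp63alpha (adjusted p = 0.00743) and by 0.97 with deltaNp63beta (adjusted p = 0.00191). NRP1, a semaphorin and VEGF co-receptor that can carry a glycosaminoglycan chain, averaged 2053 ± 63.6 with deltaNp63alpha, 1086 ± 61.5 with deltaNp63beta and 2649 ± 217 with vector. NRP1 fell by 0.37 with deltaNp63alpha (adjusted p = 0.00361) and by 1.28 with deltaNp63beta (adjusted p = 6.48e-08).

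The genes that build heparan sulfate chains moved in both directions: of 20 tested, 8 rose and 6 fell with deltaNp63beta (median 0.16) and 2 rose and 2 fell with deltaNp63alpha (median 0.07), each against vector. Over all genes 21.8% rose and 19.5% fell with deltaNp63beta, and 14.5% were called with deltaNp63alpha, near the count of this list. XYLT2, which adds the first xylose to the core protein, rose by 0.46 with deltaNp63beta (adjusted p = 8.57e-05). PXYLP1, a phosphatase that acts on that xylose, rose by 0.89 with deltaNp63alpha (adjusted p = 0.000248) and by 0.75 with deltaNp63beta (adjusted p = 0.000258). HS6ST1, a 6-O-sulfotransferase, rose by 0.48 (adjusted p = 0.000302), and EXTL2, a glycosyltransferase of the linkage region, fell by 0.49 (adjusted p = 0.00029), both with deltaNp63beta against vector. Of the genes that remodel finished chains, 3 of 4 were tested. SULF2, an extracellular 6-O-endosulfatase, averaged 872 ± 96.5 with deltaNp63alpha, 785 ± 82.6 with deltaNp63beta and 399 ± 96.1 with vector, and rose by 1.15 ± 0.15 (SE) with deltaNp63alpha (adjusted p = 0.000374) and by 0.99 with deltaNp63beta (adjusted p = 0.000311). Its paralog SULF1 went the other way, falling by 2.05 with deltaNp63beta against vector (adjusted p = 0.000152), at 46.6 with deltaNp63beta and 193 with vector. HPSE, the heparanase that cleaves heparan sulfate, rose by 0.56 with deltaNp63beta against vector (adjusted p = 0.00117).

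For chondroitin and dermatan sulfate synthesis, 2 of 15 tested genes rose and 7 fell with deltaNp63beta (median -0.22) and 2 of 15 fell with deltaNp63alpha (median 0.01), each against vector. Over all genes 21.8% rose and 19.5% fell with deltaNp63beta; the deltaNp63alpha count is near the 14.5% of all genes called. CSGALNACT1, which starts chondroitin chains, averaged 324 ± 6.29 with deltaNp63alpha, 533 ± 42.1 with deltaNp63beta and 741 ± 108 with vector. CSGALNACT1 fell by 1.18 with deltaNp63alpha (adjusted p = 2e-05) and by 0.47 with deltaNp63beta (adjusted p = 0.00423). CHPF2, a chondroitin polymerizing factor, fell by 0.73 (adjusted p = 6.49e-06), and DSE, the epimerase that makes dermatan sulfate, rose by 0.50 (adjusted p = 8.14e-06), both with deltaNp63beta against vector. Among 7 tested matrix proteoglycans, 1 rose and 2 fell with each isoform against vector (medians -0.83 with deltaNp63alpha and -0.33 with deltaNp63beta), the rise with deltaNp63alpha being lost under equal totals and under quantile normalization. Over all genes 14.5% were called with deltaNp63alpha and 41.3% with deltaNp63beta. The median of -0.83 is that of COL18A1, which did not pass with deltaNp63alpha (adjusted p = 0.0889). Decorin, DCN, a small collagen-binding proteoglycan and also 1 of the fibroblast markers used here, averaged 349.6 ± 8.07 with deltaNp63alpha, 166 ± 29.3 with deltaNp63beta and 1210.5 ± 2.23 with vector. HSPG2, at higher counts, went the other way. It averaged 5841 ± 289.5 with deltaNp63alpha, 6764 ± 665 with deltaNp63beta and 5207 ± 251 with vector. HSPG2 rose by 0.37 with deltaNp63beta (adjusted p = 0.0012) and did not pass with deltaNp63alpha (adjusted p = 0.145).

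The last list joined proteases that shed these receptors, their cytoplasmic partners and splicing factors of CD44. Of 13 tested, 5 rose and 1 fell with deltaNp63alpha (median 0.04) and 6 rose and 5 fell with deltaNp63beta (median 0.18), each against vector; with deltaNp63alpha the split was 4 and 2 under equal totals and 5 and 2 under quantile normalization. Over all genes 14.5% were called with deltaNp63alpha and 41.3% with deltaNp63beta. ESRP1, an epithelial splicing factor that favours the inclusion of CD44 variant exons, averaged 1324 ± 53.1 with deltaNp63alpha, 2499 ± 12.6 with deltaNp63beta and 679 ± 28.3 with vector. ESRP1 rose by 0.96 with deltaNp63alpha (adjusted p = 7.37e-07) and by 1.88 with deltaNp63beta (adjusted p = 8.15e-10), and by 0.92 between deltaNp63beta and deltaNp63alpha (adjusted p = 4.7e-07). MMP14, a membrane metalloproteinase that can cleave CD44 and syndecan-1, rose by 0.71 with deltaNp63alpha (adjusted p = 1.14e-05) and by 0.78 with deltaNp63beta (adjusted p = 1.43e-06). SDCBP2, syntenin-2, a relative of the syndecan-binding adaptor syntenin-1, averaged 1495.5 ± 77.1 with deltaNp63alpha, 644.5 ± 79.4 with deltaNp63beta and 877 ± 31.9 with vector. SDCBP2 rose by 0.77 with deltaNp63alpha (adjusted p = 0.000108) and fell by 0.45 with deltaNp63beta (adjusted p = 0.00147), each against vector. Moesin, MSN, which links the CD44 tail to actin, fell by 0.48 with deltaNp63beta against vector (adjusted p = 6.81e-06).

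**Figure D4:**
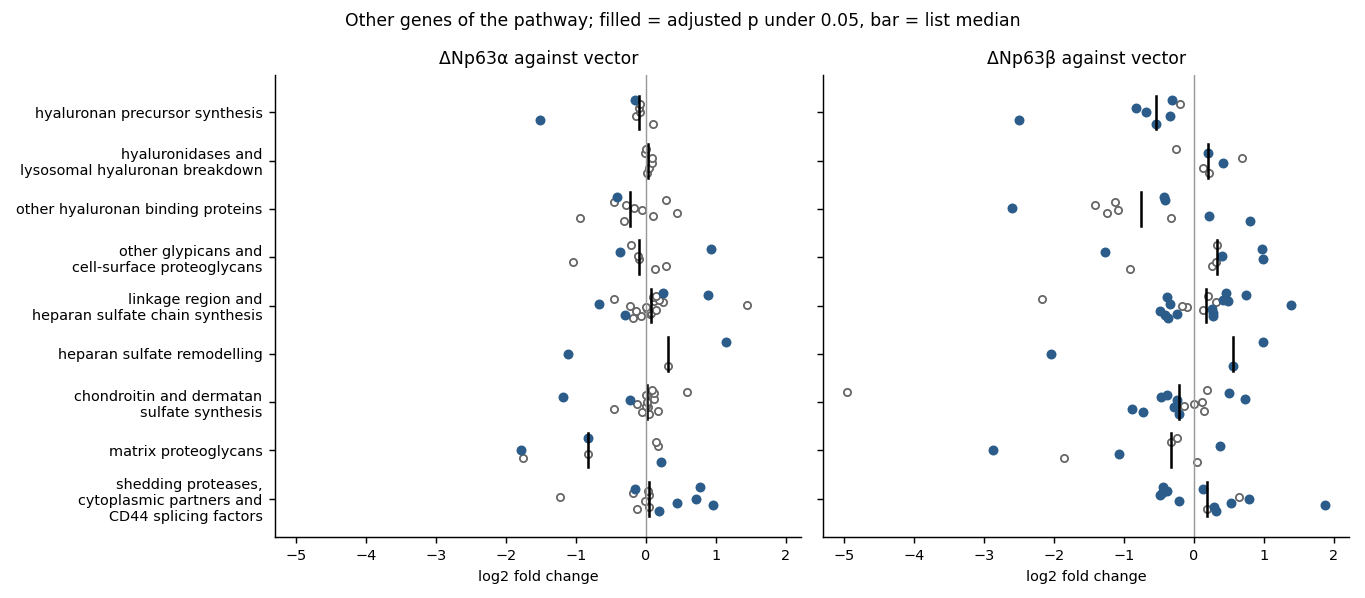
Log2 change (horizontal axis) of each tested gene of the 9 pathway lists, for deltaNp63alpha against vector and deltaNp63beta against vector; each point is 1 gene, filled where the adjusted p is under 0.05, and each vertical bar is the list median. The hyaluronan precursor list lies mostly left of 0 with deltaNp63beta, with a median of -0.54, while the heparan sulfate list spreads to both sides.

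Over the 9 libraries, F11R, PTGS2 and XRCC4 had the patterns most like HAS3 (Pearson r of log2 values 0.994, 0.994 and 0.990). ABCA12, CHAC1 and FRMD4B were most like CD44 (0.989 for each), and LIMA1, KLC3 and CFAP251 most like SDC1 (0.994, 0.993 and 0.992). LIMA1, for example, averaged 6413 with deltaNp63alpha, 4968 with deltaNp63beta and 2650 with vector. These are descriptions over 3 groups of 3 libraries, picked from all genes tested, and the points of each correlation share library and group.

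Markers of mammary epithelium and of other cell types were also compared between the groups. Over all genes 8.13% were higher and 6.37% lower with deltaNp63alpha, and 21.8% higher and 19.5% lower with deltaNp63beta, each against vector. The counts of markers below are read against these shares. The 6 mammary epithelial markers summed to between 104456 and 109299 with deltaNp63alpha, between 175066 and 183490 with deltaNp63beta and between 63935 and 68934 with vector, with 5 of 6 higher with deltaNp63alpha and 6 of 6 with deltaNp63beta. The leukocyte markers, of which 5 of 6 were tested, summed to between 1281 and 1641 with deltaNp63alpha, between 1241 and 1369.5 with deltaNp63beta and between 1871 and 2086 with vector, 2 falling with deltaNp63alpha and 2 rising and 3 falling with deltaNp63beta. The endothelial markers, of which 3 of 5 were tested, summed to between 166 and 172 with deltaNp63alpha, between 110.3 and 140.5 with deltaNp63beta and between 204 and 275 with vector, 1 falling with deltaNp63alpha and 3 with deltaNp63beta. The fibroblast markers summed to between 7728 and 7866 with deltaNp63alpha, between 12419 and 13486 with deltaNp63beta and between 10566 and 10906.5 with vector. FBLN1 gave most of that sum, and of 5 tested 2 fell with deltaNp63alpha and 2 rose and 1 fell with deltaNp63beta. Whether a shift in cell state along these markers has a part in the changes above was not tested.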

How the data were processed

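PolyA RNA of 9 MCF10A cultures, 3 per group, was sequenced. The authors deposited 1 value per Ensembl gene and library, a signal on a scale common to all libraries; per the submitters' processing notes, kallisto 0.46.2, DESeq2 and the build GRCh38 were used, and the annotation release is not given in the sources used here. Low values are not whole reads: 59.9% to 63.5% of values of at most 20 steps lay within 0.1 step of a whole number, so no count model was run. Symbols, positions and lengths came from GENCODE release 29 (36387 of 41857 IDs named).

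Genes with at least 10 in at least 3 libraries were tested (15108) with limma 3.58.1 in R 4.3.3, on log2(value + 1), which understates changes of low genes, with a mean-variance trend, all 3 groups in 1 fit and Benjamini-Hochberg adjustment at 0.05. Python 3.11.15 made tables and plots. The limma fit, and no other step, was tested on simulated normal values with changes placed in the deltaNp63beta group. Alternatives changed scaling, filter, pseudocount, groups, block, trend and fold, or left out 1 library. Intervals cover 95%, and p-values set differences against the spread between these cultures. The labels do not say whether that spread includes separately made lines of each construct.

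The genes and lists were chosen with earlier results of these data known. Text names the 10 genes, TP63, some of the marker genes, and the 3 genes closest in pattern to each of HAS3, CD44 and SDC1. From each list it names some or all of the up to 4 genes with the smallest adjusted p. HAS1, PTPRC and CDH5 were named after their values were seen. The values of 1 gene of the lists are not reported here.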

Additional observations from a re-analysis of the deposited data

How the results depend on the processing

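Tested against a 1.5-fold change, 181 genes passed for deltaNp63alpha and 903 for deltaNp63beta, each against vector, and 418 between deltaNp63beta and deltaNp63alpha. HAS3 and SDC1, 2 of the described genes, passed against vector with either isoform, and 0 passed between the isoforms (limma; 0 at an unadjusted p under 0.05). With no mean-variance trend, 3 passed for deltaNp63alpha against vector and 1 between the isoforms. Leaving out 1 library at a time gave 3 to 6 for deltaNp63alpha and 5 to 7 for deltaNp63beta against vector, and 1 to 3 between the isoforms. The share of all genes called without the trend or with a library left out is not given here. These counts are therefore not read as particular to the described genes. The log2 difference of HAS3 over HAS2 with deltaNp63beta was 9.38 with a pseudocount of 0.1; leaving out each library for this difference was added after seeing the data. Between the isoforms, signs that were not past the threshold turned. CEMIP was -0.051 without deltaNp63alpha replicate 1, -0.028 without deltaNp63alpha replicate 2, -0.09 without deltaNp63beta replicate 1, -0.331 without deltaNp63beta replicate 2, and 0.501 at the highest, without deltaNp63beta replicate 3. SDC2 was -0.018 without deltaNp63alpha replicate 1, -0.007 without deltaNp63alpha replicate 2 and -0.118 without deltaNp63beta replicate 1, with 0.26, the highest, without deltaNp63alpha replicate 3. SDC3 was -0.029 without deltaNp63alpha replicate 3, with 0.124, the highest, without deltaNp63alpha replicate 1. SDC4 was -0.046 without deltaNp63alpha replicate 1, with 0.062, the highest, without deltaNp63alpha replicate 3, and -0.015 under quantile normalization. The cause was not tested.

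The libraries share only a replicate number: deviations from the group means correlated at -0.12 to 0.08 between libraries of the same number, and 2 of 9 libraries correlated best with their own number. With the number as a block, 1833, 5939 and 4583 genes passed in the 3 comparisons, 5, 7 and 2 of them among the described genes, and CEMIP with deltaNp63alpha had an adjusted p of 0.0664. The median-of-ratios factor of the deposited values was the same, 1.0044, in all 9 libraries. That scaling could therefore change no ratio and is no check of the results. Other scalings moved the median gene by at most 0.035 (log2). Changes of HAS2 are limited by depth, at values near 1 fragment.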
